A study of Mus musculus with 18 samples.

Results

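Chemokines are small secreted proteins that attract leukocytes along a concentration gradient by acting on G protein-coupled receptors, and they are named CC or CXC after the spacing of their first cysteines. Fibroblasts make several of them, and many chemokine genes are switched on by NF-κB after inflammatory signals, while a few are also induced by interferons. TGF-β is best known in fibroblasts for raising the synthesis of extracellular matrix, and it can also restrain inflammatory gene expression.

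Here 9 chemokine genes were followed in MEF cells, which are fibroblasts cultured from mouse embryos. They were Ccl20, Cxcl1, Cxcl5, Cxcl10, Ccl2, Ccl5, Ccl7, Cxcl12 and Cxcl16, out of 55450 genes in the deposited table, and all 9 were among the 21161 genes with enough counts to be tested. Ccl20 was picked because its fall with TGF-β in empty vector cells was among the largest, and the other 8 were picked by name as chemokines of fibroblasts. The libraries formed 6 groups of 3. MEF cells from a commercial cell bank were transfected with empty pcDNA3 vector, with the Col1a1-miR-29b vector, in which a rat Col1a1 promoter drives miR-29b, or with the CMV-miR-29b vector, in which the constitutive CMV promoter does. Both miR-29b plasmids carried a human miR-29b sequence and also the fluorescent reporters EGFP and RFP. The paper describes no such inserts in the empty vector. TGF-β (20 ng/ml) was added to 1 group of each vector 6 h after transfection, the other group was left untreated, and poly(A) RNA was sequenced 24 h later. All 6 groups thus carried a transiently transfected plasmid, and no untransfected cells were sequenced. The 2 miR-29b plasmids were given at equal moles and therefore at different DNA mass, which was larger for the Col1a1-miR-29b vector. The mass for the empty vector is not given in the sources used here.

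Total counts per library ran from 65898017 to 80332633, with a median of 74155860, and the 9 chemokine genes together took 0.0609% to 0.125% of them. Libraries are named by the letter in their title, c, d or e. The third library of each Col1a1-miR-29b group carries another letter in the table and is called the unlettered library. A normalised read count is a count scaled by edgeR's TMM factors to a library of average size, and errors after ± are standard deviations over 3 libraries. A gene is said to rise or fall where edgeR's quasi-likelihood test, fitted over all 18 libraries, gave a Benjamini-Hochberg adjusted p under 0.05 over all genes tested. The fibroblast label was checked on markers: the 10 fibroblast markers summed to normalised counts of 142400 to 421300 per library, with Lum at 0 counts and Thy1 at no more than 8 in every library. Those sums were 177300 to 204600 in untreated and 350800 to 421300 in treated empty vector libraries, 142400 to 159600 and 270600 to 280600 for the Col1a1-miR-29b vector, and 158000 to 177100 and 283500 to 316000 for the CMV-miR-29b vector. Between the treated Col1a1-miR-29b and empty vector cells, 5 of the 8 fibroblast markers tested were lower, and between the untreated ones 1 was. Of all 21161 genes tested, 1615 and 784 were lower in these comparisons. Of 10 leukocyte markers, 7 stayed under 100 counts in every library, the pan-leukocyte marker Ptprc (0 to 25 counts) and the macrophage marker Adgre1 (0 to 4) among them. The other 3 had more in every library, with 613 to 1004 counts for Cd68, 462 to 749 for Cd14 and 290 to 447 for Lyz2. The epithelial markers summed to 59.57 to 93.49 in untreated and 127.7 to 243.7 in treated empty vector libraries, 109.6 to 117 and 160 to 199.8 for the Col1a1-miR-29b vector, and 35.14 to 66.1 and 165.1 to 233.8 for the CMV-miR-29b vector. The endothelial markers summed to 94.93 to 139.8 and 243.9 to 283.9, 126.4 to 158.5 and 210.8 to 247.2, and 118.6 to 186.8 and 216.5 to 271.4 in the same order. The fibroblast, epithelial and endothelial sums were thus higher in every treated library than in every untreated one of its vector, and their part in the chemokine values was not tested. Single fibroblast markers went both ways. With TGF-β, 5 of the 8 tested rose and 1 fell under the Col1a1-miR-29b vector (3% and 1.32% of all genes). Under the CMV-miR-29b vector 4 rose and 1 fell (3.08% and 1.87%). In empty vector cells the mean of Col1a1 went from 73790 to 176100, that of Dcn from 425.1 to 197 and that of S100a4 from 8788 to 7163. In such bulk samples, fewer cells that make a chemokine and less RNA per cell cannot be told apart.

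The vectors express miR-29b, whose mature sequence is shown because its seed decides which transcripts it can pair with. The sequence is from RefSeq, and the seed, bases 2 to 8, is in capitals.
mmu-miR-29b-3p: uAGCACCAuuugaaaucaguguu
Its seed is shared by miR-29a and miR-29c. The complement of the seed, TGGTGCT, was not found in the annotated 3′ UTR of any of the 9 chemokine genes, whose longest 3′ UTR in the GENCODE annotation of GRCm38 ran from 199 bases in Ccl5 to 5188 bases in Cxcl12. It was found for 2905 of 20999 protein-coding genes, or 13.8%. The absence says only that these letters are not in the annotated windows.

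The start regions of the members that could be matched in the RefSeq promoter table (GRCm38.p6) are shown. Of these, Ccl20, Cxcl1 and Cxcl10 each fell with TGF-β under both miR-29b vectors, and Cxcl12 did not. Ccl2, Ccl5, Ccl7, Cxcl5 and Cxcl16 had no entry there, so the choice of promoters rests on availability. Each run covers 250 bases before and 50 bases after the start, and capitals mark matches on either strand to the 10-base NF-κB consensus.
Ccl20 promoter, plus strand, chr1:83116516-83116815: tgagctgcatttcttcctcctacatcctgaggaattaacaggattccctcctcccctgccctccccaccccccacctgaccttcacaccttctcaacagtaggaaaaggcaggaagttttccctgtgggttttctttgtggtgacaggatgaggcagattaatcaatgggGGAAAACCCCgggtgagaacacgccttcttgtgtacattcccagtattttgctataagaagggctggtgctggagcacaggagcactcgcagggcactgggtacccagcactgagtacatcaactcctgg
Cxcl1 promoter, plus strand, chr5:90890995-90891294: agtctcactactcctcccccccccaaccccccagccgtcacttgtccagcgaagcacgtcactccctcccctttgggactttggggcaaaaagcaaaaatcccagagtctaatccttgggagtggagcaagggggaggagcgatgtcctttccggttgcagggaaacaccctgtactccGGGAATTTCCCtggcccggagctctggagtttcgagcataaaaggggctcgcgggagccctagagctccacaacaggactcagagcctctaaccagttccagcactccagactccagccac
Cxcl10 promoter, minus strand, chr5:92348840-92349139: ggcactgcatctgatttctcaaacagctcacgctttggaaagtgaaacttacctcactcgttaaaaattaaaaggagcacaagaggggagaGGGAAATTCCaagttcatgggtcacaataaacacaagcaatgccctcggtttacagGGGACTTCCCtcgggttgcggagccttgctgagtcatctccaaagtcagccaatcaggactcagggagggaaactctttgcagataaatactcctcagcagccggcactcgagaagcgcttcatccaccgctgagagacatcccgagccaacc
Cxcl12 promoter, plus strand, chr6:117168285-117168584: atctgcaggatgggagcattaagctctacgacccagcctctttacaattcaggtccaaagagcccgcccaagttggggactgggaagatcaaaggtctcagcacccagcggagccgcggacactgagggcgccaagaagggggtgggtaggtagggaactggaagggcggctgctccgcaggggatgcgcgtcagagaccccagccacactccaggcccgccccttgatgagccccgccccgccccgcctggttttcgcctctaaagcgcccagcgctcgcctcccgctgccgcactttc
The NF-κB consensus had 1 match in the Ccl20 promoter, at 2 overlapping positions on opposite strands in Cxcl1, and at 2 separate positions in Cxcl10. It did not match in the Cxcl12 promoter. Of 32851 promoters of this length in the table, 1480 held a match, or 4.51%. The interferon-stimulated response element, GAAA repeated after any 2 bases, had 1 match in Cxcl10 and in none of the other 3, against 3.44% of all promoters. The AP-1 letters TGANTCA occurred only in Cxcl10, at 1 palindromic position, against 7.81% of all promoters. The Smad letters CAGAC occurred in Cxcl1 alone among the 4, against 49.6% of all promoters. A match is a description of the letters and shows no binding.

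The members differed widely in level. Over the 18 libraries, the mean level per length, in CPM (a count scaled to the library total) per kilobase of exon, was 212.3 for Cxcl10, the ligand of Cxcr3 and a classic interferon-induced chemokine. The monocyte attractant Ccl2 followed at 103.5. Ccl5, which attracts T cells and monocytes, was at 78.9, and Ccl7, a further monocyte attractant, was at 69.5. The neutrophil attractant Cxcl1 stood at 49.3. These 5 genes formed an upper tier. Ccl20, the ligand of Ccr6, was far below them at 4.50, with 121 to 1024 counts per library. Cxcl12, the ligand of Cxcr4, was at 2.77, and Cxcl16, which is made as a membrane-bound ligand of Cxcr6, was at 2.08. Cxcl5, a neutrophil attractant close to Cxcl1, was at 0.0577 and had at most 34 counts in a library. The deposited FPKM values of 16 libraries placed the 9 genes in the same order. As in the plot of levels per length, the upper tier and the lower tier did not overlap in any library.

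**Figure D1:**
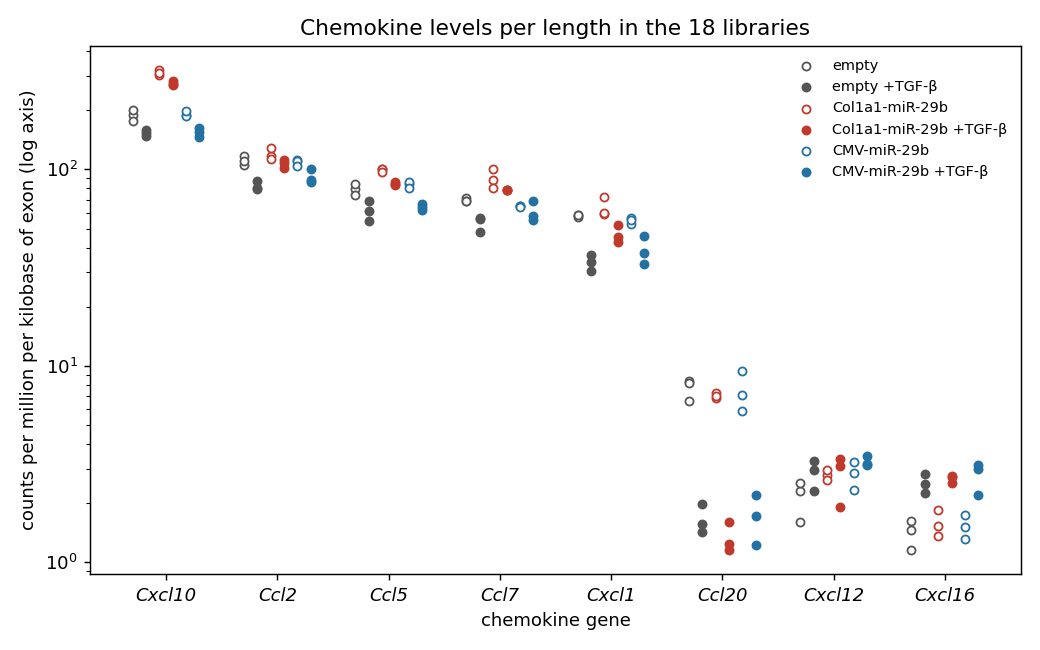
Level of 8 chemokine genes in CPM per kilobase of exon (log axis), 1 point per library, open for no TGF-β and filled for TGF-β. Cxcl10 lay at 146.6 to 320.9 and Ccl20 at 1.152 to 9.399 over the 18 libraries, and Cxcl5, with libraries at 0, is not drawn.

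Ccl20 (ENSMUSG00000026166) lies on the plus strand of chromosome 1 of GRCm38, from 83116766 to 83119167. In empty vector cells its counts were 956, 753 and 908 in libraries c, d and e without TGF-β, and 144, 174 and 204 with TGF-β. The normalised count went from 819.3 ± 103.4 to 175.5 ± 29.9 (n = 3 each), which is -2.22 on the log2 scale with a standard error of 0.22. This is the contrast by which Ccl20 was chosen, so it is given with no test.

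The same contrast in cells with the miR-29b vectors rests on other libraries, but their results were known when Ccl20 was picked, so the tests are not independent evidence of its direction. In Col1a1-miR-29b cells, Ccl20 had 707, 791 and 721 counts without TGF-β and 121, 130 and 160 with it. Every treated library was far below every untreated one, and the normalised count went from 748.6 ± 24.28 to 141.2 ± 25.03 (n = 3 each). Ccl20 fell 5.3-fold (-2.41 on the log2 scale, standard error 0.22, adjusted p = 4.41e-06 in edgeR). In CMV-miR-29b cells its untreated libraries held 659, 1024 and 777 counts and its treated ones 230, 160 and 126. The groups again did not overlap, although the untreated libraries varied more, with a normalised count of 792.4 ± 187.9 against 181.8 ± 52.29 (n = 3 each). Here Ccl20 fell 4.36-fold (-2.12 on the log2 scale, standard error 0.22, adjusted p = 1.29e-05 in edgeR). Between the CMV-miR-29b and Col1a1-miR-29b cells the change with TGF-β differed by 0.28 on the log2 scale (standard error 0.30, adjusted p = 0.997 in edgeR), which is about the size of its own error.

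Ordered by mean, the untreated groups came first, empty vector at 819.3, CMV-miR-29b at 792.4 and Col1a1-miR-29b at 748.6, and their libraries overlapped. The treated groups followed, CMV-miR-29b at 181.8, empty vector at 175.5 and Col1a1-miR-29b at 141.2, and they overlapped as well. The gap between the lowest untreated and the highest treated group mean was 566.8, whereas the largest standard deviation of those 2 groups was 52.29. Against empty vector cells of the same treatment, which are given with no test, Ccl20 differed by -0.13 (standard error 0.21) and -0.31 (0.22) on the log2 scale with the Col1a1-miR-29b vector, without and with TGF-β. The CMV-miR-29b vector gave -0.05 (0.21) and 0.05 (0.22).

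**Figure D2:**
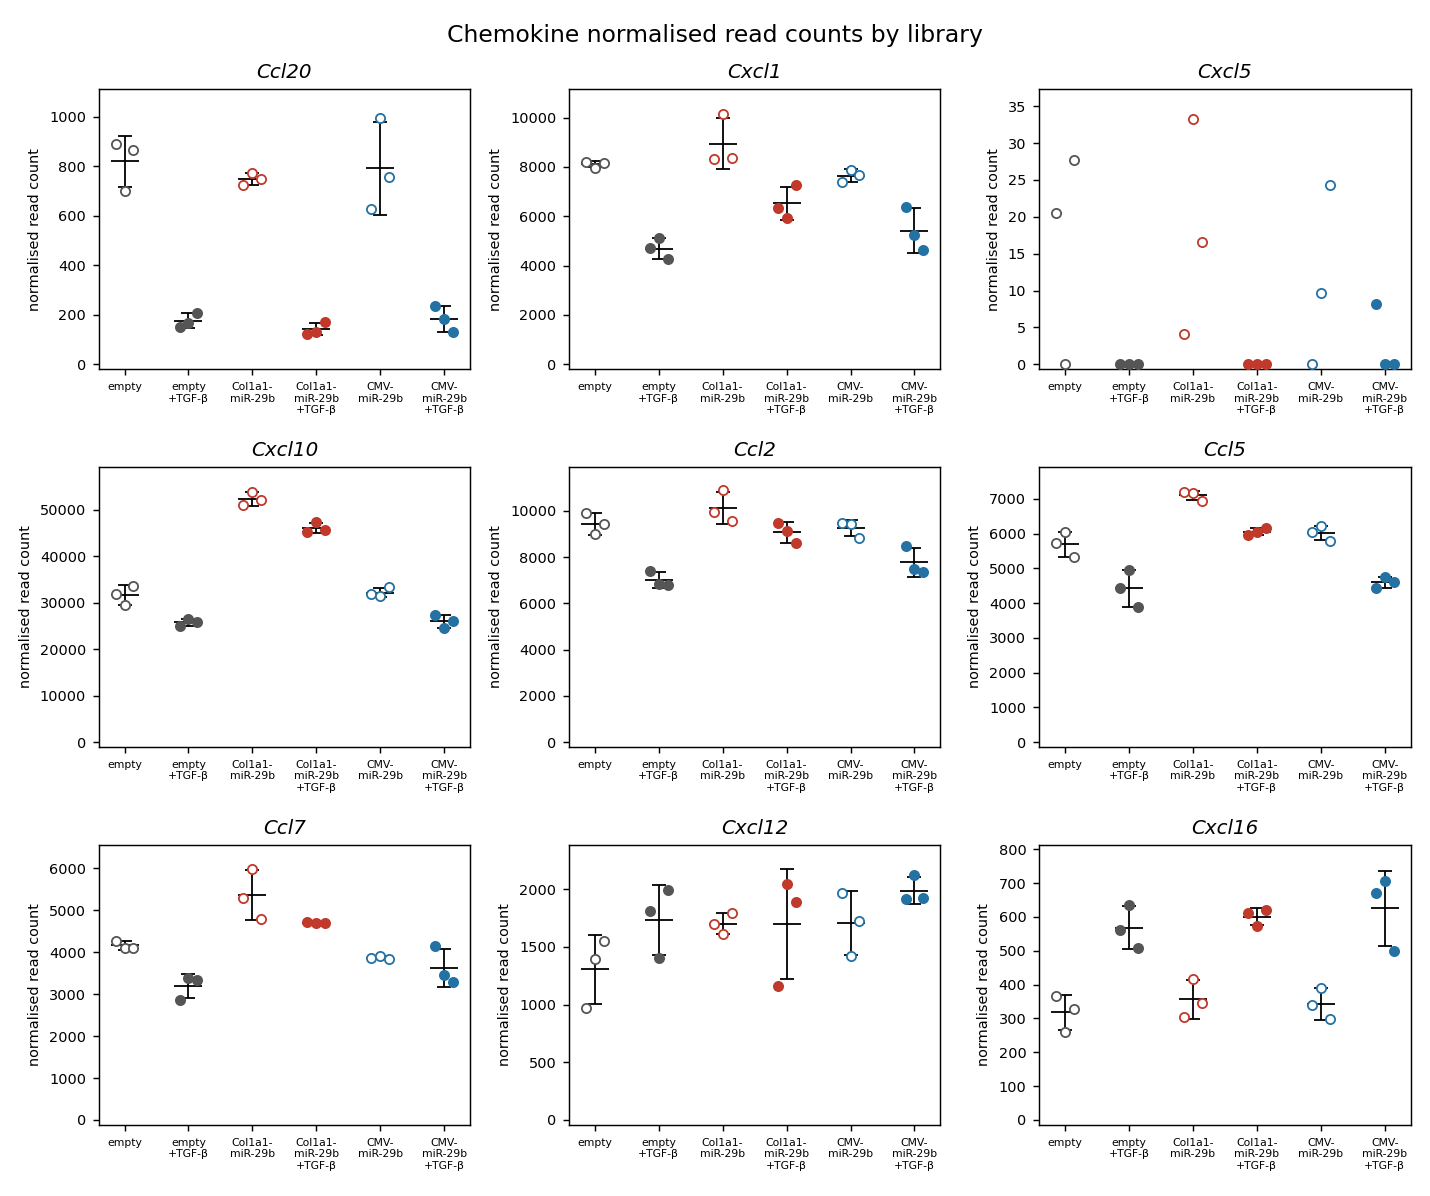
Normalised read counts of the 9 chemokine genes in the 18 libraries, open points without TGF-β and filled points with it, the bar at the mean and whiskers of 1 standard deviation (n = 3), except for Cxcl5, where libraries at 0 make the mean and whiskers unsuitable and points alone are drawn. Ccl20 sat between 625.9 and 996.0 in all untreated libraries and between 122.1 and 233.8 in all treated ones, while Cxcl10 was highest in the 6 Col1a1-miR-29b libraries.

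The genes whose pattern was most like that of Ccl20 were sought by Pearson correlation of log2 levels over the 18 libraries, among 13911 genes with a mean of at least 1 CPM. They were Saa3 (r = 0.981), an acute-phase serum amyloid, Ptx3 (0.978), a long pentraxin, the complement component C3 (0.975), Steap4 (0.962), a metalloreductase, and Adamts9 (0.959), a secreted protease. The log2 fold changes of Saa3 with TGF-β were -1.90, -2.07 and -2.05 with the empty, the Col1a1-miR-29b and finally the CMV-miR-29b vector, and those of Ptx3 were -1.97, -1.63 and -1.87. All the points share the split between treated and untreated libraries, so these correlations are a description and carry no p. Among the members themselves, Ccl20 correlated at 0.818 with Cxcl1 and at -0.862 with Cxcl16 over the same libraries.

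The neutrophil attractants Cxcl1 and Cxcl5 bind Cxcr2. Cxcl1 (ENSMUSG00000029380, chromosome 5, 90891241 to 90893115, plus strand) had 8790, 8556 and 8556 counts in empty vector cells without TGF-β and 4499, 5318 and 4165 with it, a change of -0.79 on the log2 scale with a standard error of 0.11, given with no test. In Col1a1-miR-29b cells it had 8110, 10369 and 8068 counts without TGF-β and 6289, 5857 and 6866 with it. In CMV-miR-29b cells it had 7762, 8115 and 7912 counts without TGF-β and 6293, 4592 and 4503 with it. The treated libraries lay below the untreated ones with each vector. Cxcl1 fell with TGF-β under the Col1a1-miR-29b vector (log2 fold change -0.46, standard error 0.11, adjusted p = 0.0252 in edgeR) and under the CMV-miR-29b vector (-0.50, 0.11, adjusted p = 0.0126 in edgeR). Both calls were lost with the 2 groups fitted alone. The first was also lost without replicate d of the untreated (-0.35) or replicate c or d of the treated Col1a1-miR-29b cells (-0.44 and -0.39), and the second without replicate d or e of the treated CMV-miR-29b cells (-0.48 and -0.40). Its decrease in empty vector cells was larger by 0.33 (standard error 0.15) and 0.29 (0.15) on the log2 scale than with the Col1a1-miR-29b vector and the CMV-miR-29b vector, which is given with no test.

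Cxcl5 (ENSMUSG00000029371, chromosome 5, 90759360 to 90761624, plus strand) was near the limit of detection. Its counts without TGF-β were 22, 0 and 29 in empty vector cells, 4, 34 and 16 in Col1a1-miR-29b cells, and 0, 10 and 25 for the CMV-miR-29b vector. With TGF-β, all 6 libraries with the empty or the Col1a1-miR-29b vector were at 0, and those with the CMV-miR-29b vector had 8, 0 and 0 counts. Against a floor of 3 counts per library, Cxcl5 was at least 5.3-fold lower with TGF-β in empty vector cells and at least 5.83-fold lower in Col1a1-miR-29b cells, but libraries at 0 occurred on both sides in empty vector cells. These bounds leaned on 1 library each, becoming 3.38-fold without replicate e of the untreated empty vector cells and 3.35-fold without replicate d of the untreated Col1a1-miR-29b cells. The test did not pass in Col1a1-miR-29b cells (adjusted p = 0.209 in edgeR) or in CMV-miR-29b cells (adjusted p = 0.717).

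Cxcl10 (ENSMUSG00000034855, chromosome 5, 92346638 to 92348882, minus strand) had 34104, 31708 and 35271 counts in empty vector cells without TGF-β and 23868, 27680 and 25251 with it. The untreated Col1a1-miR-29b libraries had 49736, 55088 and 50234 counts and the treated ones 44752, 46615 and 43144. The untreated CMV-miR-29b libraries had 33443, 32314 and 34271 counts and the treated ones 26864, 21591 and 25381. All 6 Col1a1-miR-29b libraries were above all 12 others, and within each vector the treated libraries were below the untreated ones. The fall with TGF-β was small. It amounted to -0.18 on the log2 scale with the Col1a1-miR-29b vector (standard error 0.05, adjusted p = 0.0452 in edgeR) and to -0.31 with the CMV-miR-29b vector (0.05, adjusted p = 0.00103 in edgeR). In empty vector cells it was -0.29 (standard error 0.05, no test). The call in Col1a1-miR-29b cells rested on every library, since leaving out any of the 6 took the adjusted p over 0.05, with log2 fold changes of -0.21 to -0.16.

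The monocyte and T cell attractants Ccl2, Ccl5 and Ccl7 lie on chromosome 11. Ccl2 (82035571 to 82037453, plus strand) ranged over 9643 to 10632 counts in untreated and 6631 to 7138 in treated empty vector cells. It fell with TGF-β in CMV-miR-29b cells, from a normalised count of 9247 ± 353.6 to 7778 ± 629.2 (n = 3 each, log2 fold change -0.25, standard error 0.07, adjusted p = 0.0405 in edgeR). This call was lost with the 2 groups fitted alone, with a looser filter on low counts, and without replicate c or d of the untreated (-0.23 and -0.24) or replicate d or e of the treated cells (-0.229 and -0.215). In Col1a1-miR-29b cells Ccl2 went from 10130 ± 700.1 to 9076 ± 455 and did not pass (-0.16, adjusted p = 0.265 in edgeR). Ccl5 (83525778 to 83530518, minus strand) fell in CMV-miR-29b cells from 6019 ± 212.6 to 4595 ± 156 (log2 fold change -0.39, standard error 0.07, adjusted p = 0.00275 in edgeR). Its values in Col1a1-miR-29b cells, 7100 ± 140.7 and 6057 ± 92.24, did not overlap, but the test did not pass (-0.23, adjusted p = 0.0896 in edgeR). Ccl7 (82045712 to 82047525, plus strand) passed with neither miR-29b vector, with log2 fold changes of -0.19 (adjusted p = 0.347) and -0.10 (adjusted p = 0.721 in edgeR). In empty vector cells the log2 fold changes of the 3 genes were -0.43 for Ccl2, -0.36 for Ccl5 and -0.38 for Ccl7, with standard errors of 0.07 to 0.09 and no test.

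Of the remaining 2 members, Cxcl16 rose and Cxcl12 passed with neither miR-29b vector. Cxcl16 (ENSMUSG00000018920, chromosome 11, 70453983 to 70459984, minus strand), also known as a scavenger receptor for oxidised lipoprotein, had normalised counts of 365.3, 260.6 and 327.2 in untreated and 561.2, 634.1 and 509.5 in treated empty vector cells (log2 fold change 0.84, standard error 0.17, no test). With the Col1a1-miR-29b vector these were 305.7, 417.7 and 344.9 in untreated and 610.5, 573.2 and 619.7 in treated cells. With the CMV-miR-29b vector they were 340.9, 391.0 and 297.4 in untreated and 671.8, 706.0 and 498.3 in treated cells. Thus Cxcl16 was higher in each treated library than in each untreated library of its vector. It rose 1.69-fold in Col1a1-miR-29b cells (log2 fold change 0.76, standard error 0.17, adjusted p = 0.0136 in edgeR) and 1.82-fold in CMV-miR-29b cells (0.87, 0.17, adjusted p = 0.00471 in edgeR). The call in Col1a1-miR-29b cells was lost with the replicate block (0.71), with limma on either FPKM scale (0.45 and 0.66), and without replicate c (0.65) or the unlettered one (0.72) of the untreated or the unlettered one (0.73) of the treated cells. The call in CMV-miR-29b cells was lost with the 2 groups fitted alone (0.86). Cxcl12 (ENSMUSG00000061353, chromosome 6, 117168535 to 117181367, plus strand) had 1044 to 2073 counts over the 18 libraries, and treated and untreated libraries overlapped with each vector. Its log2 fold changes with TGF-β were 0.41 (standard error 0.20, no test) with the empty vector, -0.002 with the Col1a1-miR-29b vector (adjusted p = 1 in edgeR) and 0.22 with the CMV-miR-29b vector (adjusted p = 0.717 in edgeR).

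Counted over the members, TGF-β lowered 3 of 9 genes in Col1a1-miR-29b cells (Ccl20, Cxcl1 and Cxcl10), where 1.32% of all 21161 genes fell, and raised Cxcl16 alone, where 3% rose. In CMV-miR-29b cells it lowered 5 of 9 (Ccl20, Cxcl1, Cxcl10, Ccl5 and Ccl2), where 1.87% of all genes fell, and raised Cxcl16, where 3.08% rose. Ccl20 is in both counts of fallers, but it was picked for its fall with TGF-β, so its calls add no evidence to them. At an unadjusted p under 0.05 edgeR had 8 of 9 members in Col1a1-miR-29b and 6 of 9 in CMV-miR-29b cells, in either direction. Of all 21161 genes, 3025 and 3310 were under that threshold. The median log2 fold change of the 9 members was -0.19 in Col1a1-miR-29b and -0.31 in CMV-miR-29b cells, beside medians over all genes of -0.006 and -0.003. For the 7 members other than Ccl20 and Cxcl5 the medians were -0.18 and -0.25. No member differed between the 2 vectors in its change with TGF-β. The test of that difference in edgeR called 0 of 9 members and 0% of all genes, with 0 members at an unadjusted p under 0.05 and 0 with DESeq2. Of all 21161 genes, 1083 were under that unadjusted threshold in edgeR. The count of 4 called members in Col1a1-miR-29b cells became 2 whichever of the 6 libraries was left out, replicates c, d or the unlettered one of either group, with Ccl20 called each time. The count in CMV-miR-29b cells became 3 when those 2 groups were fitted alone, namely Ccl20, Ccl5 and Cxcl10.

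**Figure D3:**
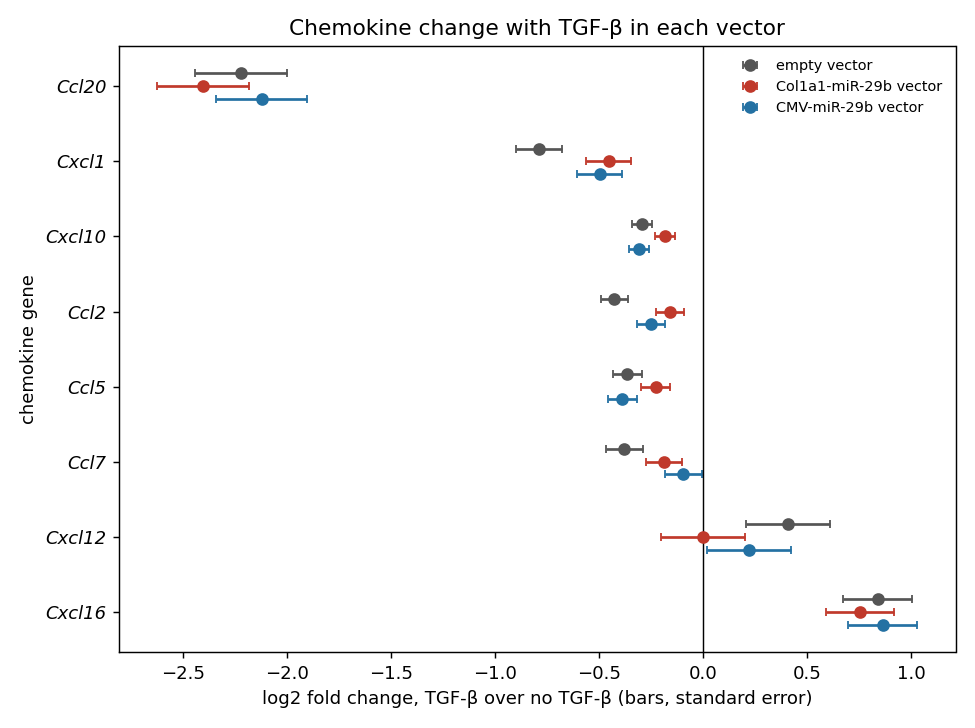
Log2 fold change with TGF-β of 8 chemokine genes with each of the 3 vectors, bars showing the standard error (n = 3 libraries per group). Ccl20 lay between -2.41 and -2.12 with all 3 vectors, Cxcl16 between 0.76 and 0.87, and Cxcl5, whose treated libraries were mostly at 0, is not drawn.

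The vectors were then compared within a treatment. Ccl20 is left out of the comparisons with empty vector cells, since its choice used those libraries. Without TGF-β, Cxcl10 was 1.65-fold higher with the Col1a1-miR-29b vector than with the empty vector, at a normalised count of 52310 ± 1453 against 31650 ± 2071 (n = 3 each, log2 fold change 0.73, standard error 0.05, adjusted p = 4.75e-06 in edgeR). With TGF-β it was 1.79-fold higher, at 46050 ± 1107 against 25790 ± 783 (n = 3 each, 0.84, 0.05, adjusted p = 6.34e-07 in edgeR). Cxcl10 passed this test under each of the alternatives run. With the CMV-miR-29b vector Cxcl10 stood at 32170 ± 1004 without TGF-β and 25980 ± 1339 with it, and the log2 differences from empty vector cells were 0.02 and 0.01 (standard error 0.05 for both), with adjusted p-values of 1 and 0.964 in edgeR.

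Other members moved the same way as Cxcl10 with the Col1a1-miR-29b vector, by less. Without TGF-β, Ccl7 was 1.29-fold higher than in empty vector cells (log2 fold change 0.36, adjusted p = 0.0255 in edgeR) and Ccl5 was 1.25-fold higher (0.32, adjusted p = 0.0161 in edgeR). With TGF-β, Ccl7 was 1.47-fold higher (0.56, adjusted p = 0.00129 in edgeR), with 4669, 4619 and 4438 counts against 2740, 3521 and 3273. Cxcl1 was 1.39-fold higher (0.48, adjusted p = 0.0104 in edgeR), Ccl5 was 1.37-fold higher (0.45, adjusted p = 0.00113 in edgeR), and Ccl2 was 1.29-fold higher (0.37, adjusted p = 0.00244 in edgeR). For all of these, the Col1a1-miR-29b libraries lay above the empty vector libraries without overlap. Cxcl12 and Cxcl16 passed in neither treatment, with log2 differences of 0.38 and 0.17 in untreated and -0.03 and 0.08 in treated cells.

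In all, 3 of 8 members were higher with the Col1a1-miR-29b vector than with the empty vector without TGF-β, where 2.57% of all genes were higher, and 5 of 8 with TGF-β, where 5.31% were. None was lower. The count without TGF-β became 1, Cxcl10, when replicate c or e of the untreated empty vector cells or replicate c or d of the untreated Col1a1-miR-29b cells was left out. For the CMV-miR-29b vector against the empty vector, edgeR called 0 of 8 members in either treatment, where it called 0.00473% of all genes without TGF-β and 0.00945% with it. At an unadjusted p under 0.05 there were 0 members without TGF-β and 1 with it (Ccl2), and DESeq2 called 0 in both. Of all 21161 genes, 1156 and 2531 were under that unadjusted threshold in edgeR. The log2 differences of the 7 members other than Ccl20 and Cxcl5 ran from -0.10 to 0.38 without TGF-β and from 0.01 to 0.21 with it.

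**Figure D4:**
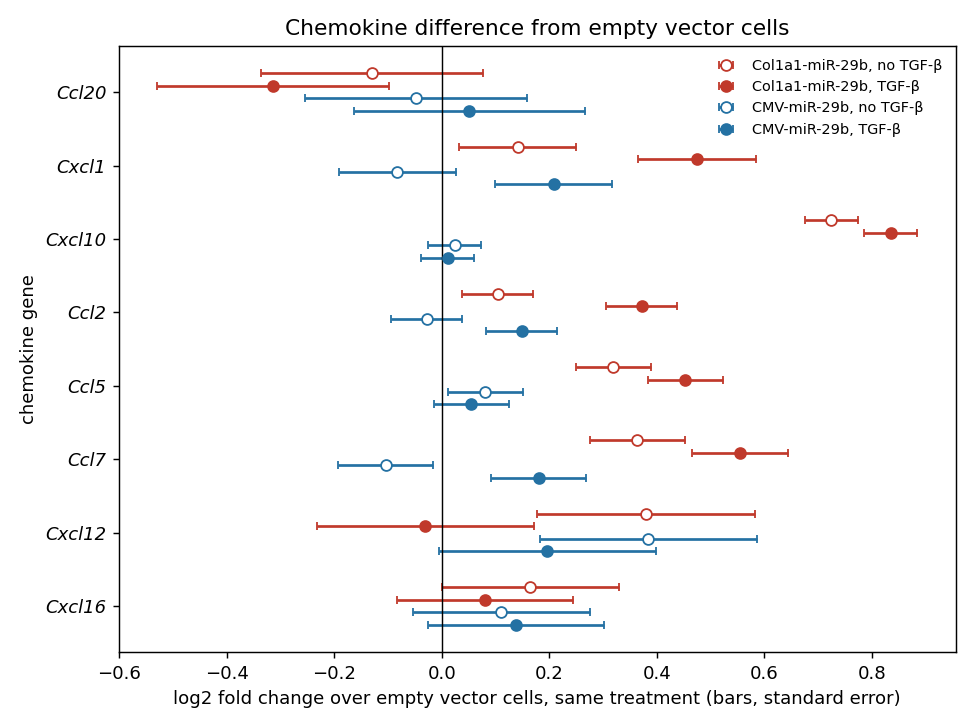
Log2 fold change of 8 chemokine genes in cells with either miR-29b vector over empty vector cells of the same treatment, open points without TGF-β and filled points with it, bars showing the standard error (n = 3 libraries per group). Cxcl10 lay at 0.73 and 0.84 with the Col1a1-miR-29b vector and at 0.02 and 0.01 with the CMV-miR-29b vector, and Cxcl5 is not drawn.

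The 2 miR-29b vectors also differed directly, in a comparison that shares the Col1a1-miR-29b libraries with the one above. Cxcl10 was 1.63-fold lower with the CMV-miR-29b vector than with the Col1a1-miR-29b vector without TGF-β (log2 fold change -0.70, standard error 0.05, adjusted p = 7.54e-06 in edgeR) and 1.77-fold lower with it (-0.83, 0.05, adjusted p = 7.62e-07 in edgeR). Ccl7 was 1.38-fold lower without TGF-β (-0.47, adjusted p = 0.0172 in edgeR) and 1.3-fold lower with it (-0.38, adjusted p = 0.0451 in edgeR). Ccl5 passed with TGF-β alone (-0.40, adjusted p = 0.0138 in edgeR, against -0.24 and adjusted p = 0.0922 without TGF-β). That made 2 of 9 members lower without TGF-β, where 0.803% of all genes were, and 3 of 9 with it, where 0.912% were. Ccl20 did not pass in either treatment, with log2 differences of 0.08 (adjusted p = 0.91) and 0.37 (adjusted p = 0.459 in edgeR). The count without TGF-β became 1 without replicate d of the Col1a1-miR-29b cells or replicate c or e of the CMV-miR-29b cells. The count with TGF-β became 1 without replicate c or the unlettered one of the treated Col1a1-miR-29b cells or replicate d of the treated CMV-miR-29b cells, with Cxcl10 kept each time.

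Interferon-responsive genes moved in the same comparisons. Of 18 listed genes of this kind, which do not include Cxcl10, 7 were higher with the Col1a1-miR-29b vector than with the empty vector without TGF-β and 7 with it, among them the antiviral effector Ifit1 (log2 fold change 0.74 and 0.75). Over all genes, 2.57% and 5.31% were higher. The median log2 fold change of the 18 was 0.40 without TGF-β and 0.41 with it, beside 0.02 for all genes in both. With the CMV-miR-29b vector 0 of the 18 passed in edgeR in either treatment, with 4 and 2 at an unadjusted p under 0.05 and 0 and 1 called by DESeq2. Of all 21161 genes, 1156 and 2531 were under that unadjusted threshold in edgeR. With TGF-β, 1 of the 18 fell under the Col1a1-miR-29b vector and 7 under the CMV-miR-29b vector, where 1.32% and 1.87% of all genes fell. At an unadjusted p under 0.05 there were 5 and 12 of them, in either direction, beside 3025 and 3310 of all 21161 genes. DESeq2 called 3 and 9 of the 18. The test of the difference between the 2 vectors in this change called 0 of the 18 in edgeR and 0 in DESeq2. At an unadjusted p under 0.05 edgeR had 1 of them, beside 1083 of all 21161 genes. Gbp2, an interferon-induced GTPase, fell in both (-0.53, adjusted p = 4.34e-05, and -0.44, adjusted p = 0.000269, in edgeR). The 10 leukocyte markers summed to normalised counts of 1889 to 1997 in Col1a1-miR-29b libraries and 1697 to 1878 in empty vector libraries without TGF-β, with Adgre1 and Cd3e at 0 in both. Ptprc was low in these groups, at normalised counts of 15.54 to 23.6 and 3.723 to 13.05, from 15 to 23 and 4 to 14 counts. With TGF-β the sums were 1782 to 2079 and 1734 to 1863, and Ptprc was at 15.14 to 24.35 and 0 to 25.58. Of the 5 leukocyte markers with enough counts to be tested, edgeR called 0 between these vectors in either treatment. The part of an interferon response or of leukocytes in the Cxcl10 values was not tested. The paper reports far more miR-29b with the CMV-miR-29b than with the Col1a1-miR-29b vector in untreated cells. It reports that TGF-β raised miR-29b under the Col1a1-miR-29b vector, with no significant increase under the CMV-miR-29b vector. The plasmid sequence, the mass of DNA, the promoter and the level of miR-29b differ together between the vectors and cannot be told apart.

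The rest of the chemokine system was read from lists of genes. Of 29 other chemokine ligands, 13 had enough counts to be tested, and Ccl17, a ligand of Ccr4, was the one that rose with TGF-β under the Col1a1-miR-29b vector (log2 fold change 1.18, adjusted p = 0.00117 in edgeR) and under the CMV-miR-29b vector (1.71, adjusted p = 3.26e-05 in edgeR). None of the 13 fell in edgeR or in DESeq2. At an unadjusted p under 0.05 edgeR had 2 and 1 of them, in either direction, beside 3025 and 3310 of all 21161 genes. Over all genes, 3% rose and 1.32% fell with the Col1a1-miR-29b vector, and 3.08% and 1.87% with the CMV-miR-29b vector. Several receptors of the members were at or near 0. Ccr2, the receptor of Ccl2 and Ccl7, and Cxcr4, that of Cxcl12, had 0 counts in all 18 libraries, and Ccr6, that of Ccl20, had 0 to 4. Cxcr2 had 0 to 33 counts and Cxcr6 had 12 to 72. The exception was Ackr3, an atypical receptor that takes up Cxcl12, with 1715 to 4643 counts. Ackr3 rose with TGF-β under the Col1a1-miR-29b vector (log2 fold change 0.97, adjusted p = 1.3e-05 in edgeR) and under the CMV-miR-29b vector (0.76, adjusted p = 0.000132 in edgeR), the one riser among the 13 listed receptors that could be tested, while 0 fell with the former vector and 1, Ccrl2, with the latter. Of 8 tested proteases that trim or shed chemokines, Mmp14 rose with both vectors (0.63 and 0.58, adjusted p = 1.74e-05 and 3.82e-05 in edgeR).

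None of 17 genes of the NF-κB pathway itself passed with TGF-β in either miR-29b vector in edgeR, and their median log2 fold changes were 0.05 and 0.02. At an unadjusted p under 0.05 there were 3 and 4 of them, beside 3025 and 3310 of all 21161 genes. DESeq2 called 1 and 2 of the 17, all lower. Of 20 other inflammatory genes tested, 4 rose and 4 fell in Col1a1-miR-29b cells, and 2 rose and 4 fell in CMV-miR-29b cells. Over all genes, 3% rose and 1.32% fell in the former, and 3.08% and 1.87% in the latter. The inflammatory genes that fell in both were Saa3, the alarmin Il33 (-1.28 and -1.36), Lcn2 (-1.33 and -1.08), which sequesters iron-binding siderophores, and the adhesion molecule Vcam1 (-0.41 and -0.37). Tlr2, a receptor for bacterial lipoproteins, rose in both (0.59 and 0.67, adjusted p = 0.000149 and 4.13e-05 in edgeR), as did Lif, a cytokine of the interleukin-6 family (0.34 and 0.36, adjusted p = 0.0371 and 0.0254 in edgeR). The matrix and contractile genes by which TGF-β action is usually read rose too, 5 of 7 tested under the Col1a1-miR-29b vector and 6 of 7 under the CMV-miR-29b vector, with Col1a1 up by 1.04 and 1.12 on the log2 scale.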

How the data were processed

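Poly(A) RNA of 18 MEF libraries, 3 per group, was sequenced as paired ends. Reads were trimmed with cutadapt, checked with FastQC, mapped with HISAT2 and assembled with StringTie, according to the paper and the submitters' processing notes. Those notes list mm9, but 52506 of the 55450 genes have the coordinates of the GENCODE annotation of GRCm38, which was used here. The authors deposited whole-number counts per gene, not normalized, and FPKM values. The counting step is not given in the sources used here. Between 33.8% and 36.7% of counts from 1 to 40 were multiples of 4, where 25% would be even. Total counts ran from 65898017 to 80332633 per library. Both Col1a1-miR-29b groups hold 1 library whose column letter matches no sample title. These served as unlettered libraries, by their counts alone, and their 2 FPKM columns were not used.

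Counts were analysed in R 4.3.3 with edgeR 4.0.16 (filterByExpr, TMM, 1 mean per group, quasi-likelihood F test, Benjamini-Hochberg adjustment, threshold 0.05). Standard errors were derived from the F statistic, and the floor was 3 counts per library. Alternatives were DESeq2 1.42.0, its size factors, total counts, 2 filters on low counts, the groups compared alone, the replicate block, each library left out, counts divided by 4, and limma 3.58.1 on log2(FPKM + 1) and log2(FPKM + 0.1) in 16 libraries. The replicate block, with a term for each letter, was fitted without the unlettered libraries, so also in 16 libraries. Only the edgeR fit was tested on simulated counts, for the TGF-β contrast in Col1a1-miR-29b cells. These counts were drawn from the genes' own means and edgeR's estimate of spread. P-values measure the spread between the 3 repeated experiments of a group, which the labels do not say came from separate cultures, and replicate libraries differed by more than counting error. Members, gene lists and tests were chosen with earlier results of these data known. All members were named, and from other lists those called with TGF-β in both miR-29b vectors (up to 5), a few receptors and the 5 genes most correlated with Ccl20. Ifit1, Ccrl2, Lif and the markers were named after their values were seen, and the Cxcl5 bounds without 1 library were added after seeing the data. Columns of the authors' own comparisons were not used.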

Additional observations from a re-analysis of the deposited data

How the results depend on the processing

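Every member called with TGF-β or between vectors kept its direction under the alternatives, and Ccl20 was called with TGF-β in each of them with both miR-29b vectors, as was Cxcl10 with the Col1a1-miR-29b vector against either other vector. Counts of called members moved. For TGF-β and the Col1a1-miR-29b vector the 4 became 2 (Ccl20 and Cxcl1) with the replicate block and with limma on either FPKM scale, and 2 whichever library was left out. With the CMV-miR-29b vector the 6 became 3 with the groups compared alone. The 3 members higher with the Col1a1-miR-29b than the empty vector without TGF-β became 1 with the replicate block, and 1 to 3 with a library left out. The 2 members lower with the CMV-miR-29b than the Col1a1-miR-29b vector without TGF-β became 1 with the replicate block or the groups alone, and the 3 with TGF-β became 1 with the replicate block or limma, and 1 to 2 with a library left out in both treatments. The replicate block changed no other count of called members by over 1.5 times, but took Cxcl1 with TGF-β out of the call between the Col1a1-miR-29b and empty vectors. The block and limma both lacked the unlettered Col1a1-miR-29b libraries, so their changes cannot be told apart from that loss. Same-lettered libraries did not deviate together (mean correlation 0.018 over 36 pairs, against -0.01 over 70 pairs of different letters), so the letters were not taken as pairs. Values near 0 changed sign. The log2 difference between Col1a1-miR-29b and empty vector cells with TGF-β became 0.006 for Cxcl12 when scaled by total counts, and -0.017 for Cxcl16 with the replicate block. With a library left out it ran from -0.191 to 0.182 for Cxcl12. The TGF-β change of Cxcl12 with the Col1a1-miR-29b vector ran from -0.155 to 0.211, and the difference of Cxcl10 between CMV-miR-29b and empty vector cells from -0.029 to 0.065 without TGF-β and from -0.017 to 0.052 with it. The causes were not tested. Over all genes, scaling by total counts turned 543 higher of 1327 called into 679 of 1322 (Col1a1-miR-29b against empty vector, without TGF-β), 1123 of 2738 into 1469 of 2792 (with TGF-β), and 212 of 382 into 145 of 333 (CMV-miR-29b against Col1a1-miR-29b, without TGF-β). With the groups alone, genes called between the miR-29b vectors went from 382 to 18 without TGF-β and 408 to 48 with it. The replicate block gave 29 and 13. For Col1a1-miR-29b against empty vector, 1327 became 782 and 161, and 2738 became 1072 and 1152, in the same order. For CMV-miR-29b against empty vector, the groups alone gave 10 against 1 and 7 against 2. The shares of all genes given above are those of the fit over all 18 libraries. DESeq2 called more genes, for instance 42 against 1 and 288 against 2 for the CMV-miR-29b against the empty vector and 35 against 0 for the difference in response, and gave no adjusted p for Cxcl5 in several comparisons. Depth limits Cxcl5, whose counts were at or near 0.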

Other observations

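Cx3cl1, a ligand outside the 9 members, had counts that jumped between libraries of a group. In untreated Col1a1-miR-29b cells they were 2142, 17288 and 12910, and with TGF-β 3033, 21274 and 2592, whereas the other 12 libraries held 11854 to 20802. No test is given for it, and the cause was not tested.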
